A study of Homo sapiens with 8 samples.

Results

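Gene expression in CDK2-/- cells was compared with that in WT cells of the human colorectal carcinoma line HCT-116, using the 4 arrays of the 8 in the series that the labels assign to these groups. WT cells were the untreated parental line, and CDK2-/- cells were an untreated knockout derivative purchased with it. Both were grown in DMEM with 10% serum, and each group had 2 arrays. Another group was WT cells treated with 20 µM NU6102, a CDK1 and CDK2 inhibitor, for 24 h (WT+NU6102). The last was R50 cells kept in 50 µM NU6102. Values of WT+NU6102 and R50 cells are set beside those of the knockout. Their arrays also entered the fit that estimated the spread, and the choice of each gene's brightest probe. The study describes the line as a CDK2 gene deletion, but which part of the gene was deleted is not given in the sources used here, nor whether more than 1 knockout clone was examined. Nothing says that the duplicate arrays came from separate cultures. The p-values therefore measure only the spread between duplicate arrays within the 4 groups, which may be technical.

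CDK2 is a kinase that is switched on by cyclins E and A and acts from late G1 through S phase. Its partner cyclins are made in waves driven by E2F factors, and p21 and p27 (CDKN1A and CDKN1B) inhibit it. Type I and III interferons act on a separate pathway, in which receptors activate JAK1 and TYK2, and STAT proteins then form the ISGF3 complex with IRF9. ISGF3 binds a DNA element called the ISRE upstream of antiviral genes, and some of its own subunits are among its targets.

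Values are log2 signals less the 75th percentile of each array, so that 0 is the 75th percentile, and a change is the mean of the CDK2-/- arrays minus the mean of the WT arrays. Of 50599 probes, 28233 were tested, namely those detected well above background by both WT arrays or by both CDK2-/- arrays, and they represent 15190 named genes. A call needed a log2 change of at least 1 in either direction together with an adjusted p below 0.05. All adjusted p-values are two-sided, from limma with Benjamini-Hochberg adjustment over the 28233 probes. The CDK2-/- arrays shared slide 1 with R50, whereas the WT arrays shared slide 2 with WT+NU6102, so slide and group cannot be told apart in this comparison. By agreement between replicates over all tested probes, no array stood apart. Replicates correlated across probes with r = 0.9961 for WT and 0.9955 for CDK2-/-, and the median absolute difference between replicates was 0.09 on the log2 scale in each group, against 0.21 between the group means. The 8 spike-in controls well above background were lower on average on the CDK2-/- arrays by 0.05 to 0.15 on the log2 scale. For each of them WT replicate 1 read highest, and WT replicate 2 lay closer to the CDK2-/- arrays. The spike-in E1A_r60_a22, for example, read 2.46 and 2.12 in WT and 2.19 and 2.11 in CDK2-/- cells. WT+NU6102 arrays, on the slide of WT, were also below WT, by a median of 0.14.

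Of the tested probes, 703 were called higher (2.49%) and 635 lower (2.25%) in CDK2-/- cells, together 4.74%. With 1 probe per gene, the brightest, 421 genes were called higher (2.77%) and 337 lower (2.22%), together 4.99%. Most genes moved little, since 81.7% had an absolute log2 change under 0.5, and the median over all genes was 0.03. Without the minimum fold change, 3060 genes were higher (20.1%) and 2546 lower (16.8%), together 36.9%, as were 32.0% of probes. Those shares are the background for the smaller changes described below. The arrays of the groups did not overlap for 69.6% of probes, so separate values alone say little. Leaving out 1 WT or 1 CDK2-/- array lowered the number of probes past the adjusted p alone from 9033 to between 5489 and 5955.

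**Figure D1:**
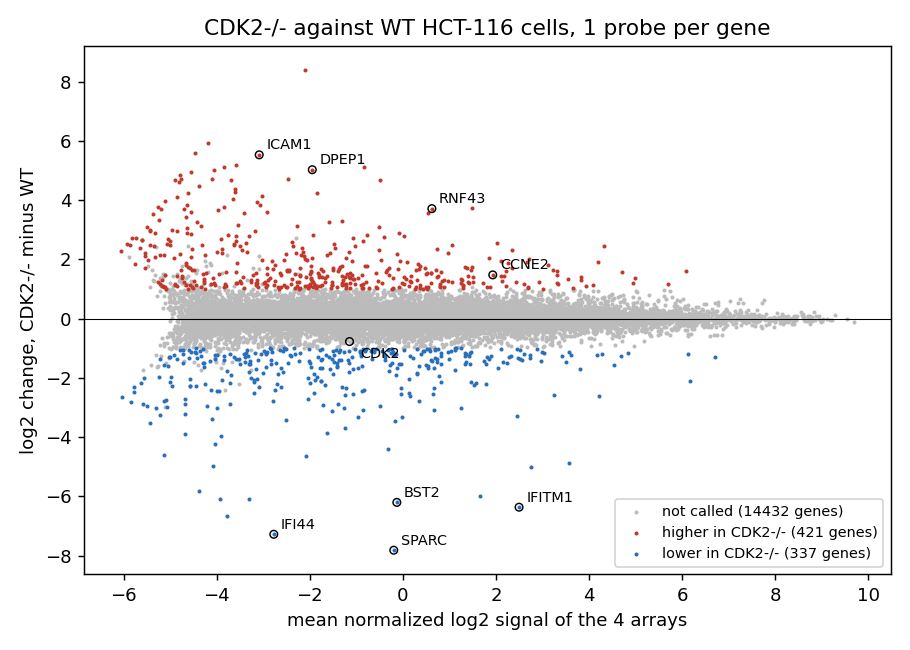
Change in CDK2-/- against WT cells (y axis, log2) over the mean normalized log2 signal of the 4 arrays (x axis), with 1 point per gene and genes called higher in red and lower in blue. Most of the 15190 genes lie near 0, and IFITM1, BST2 and SPARC fell from well above the background range.

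CDK2 itself was lower but still detected. Its single probe, on chromosome 12 of hg19 from 56365789 to 56365848, read -0.76 and -0.76 on the WT arrays and -1.56 and -1.51 on the CDK2-/- arrays. The log2 change was -0.77 (SE 0.04, adjusted p = 0.000242, limma), which is a 1.71-fold lower signal and does not reach the minimum for a call. All arrays were well above background. Since the deleted part of the gene is not given in the sources used here, this probe may lie outside it and does not check the genotype. R50 cells gave -1.10 and -1.09, and WT+NU6102 cells -0.44 and -0.42.

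Among the partners of CDK2, cyclin E messages were higher. CCNE2, which encodes cyclin E2, read 1.16 and 1.23 in WT and 2.66 and 2.67 in CDK2-/- cells, a log2 change of 1.47 (SE 0.05, adjusted p = 6.43e-05, limma). A dimmer CCNE2 probe changed by 1.19. CCNE1, for cyclin E1, rose from 4.53 and 4.61 to 5.32 and 5.28, a log2 change of 0.73 (SE 0.06, adjusted p = 0.000728, limma). The arrays of the groups did not overlap for either gene. CCNA2, for cyclin A2, fell slightly, from 2.53 and 2.52 to 2.26 and 2.27 (adjusted p = 0.0309, limma), and did not pass in 7 of 17 alternatives.

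Of the inhibitors, CDKN1B fell by 0.51 on the log2 scale and CDKN1A was higher by 0.33, both without reaching the minimum fold. Of 20 tested members in the list of CDK2, its cyclins and its regulators, 1 was called higher (5%, against 2.77% of all genes) and 0 lower. Past the adjusted p alone, 6 were higher and 6 lower. That balance depends on power, since 2 were higher without either WT array or without CDK2-/- replicate 2, and 3 were lower without any 1 of the WT, CDK2-/- or WT+NU6102 arrays.

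The kinases CDK1, CDK4 and CDK6 and cyclin D1 (CCND1) showed no change past the test. CDK1, the mitotic kinase, read 3.21 and 3.25 in WT and 3.13 and 3.11 in CDK2-/- cells (adjusted p = 0.102, limma). The log2 changes of CDK4, CDK6 and CCND1 were 0.14, 0.11 and -0.01, with adjusted p-values of 0.139, 0.161 and 0.891 (limma). RB1, the pocket protein that restrains E2F factors, rose by 0.87 (SE 0.06, adjusted p = 0.000407, limma). E2F1 read 1.31 and 1.26 in WT and 1.04 and 1.05 in CDK2-/- cells, a small fall of 0.24 that, like the rise of CDKN1A, was lost in some alternatives. LIN9, a subunit of the DREAM and MuvB complexes, rose by 1.23 on its brightest probe and differed by 0.09 on another (adjusted p = 0.412, limma), so the probes of this gene disagree.

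**Figure D2:**
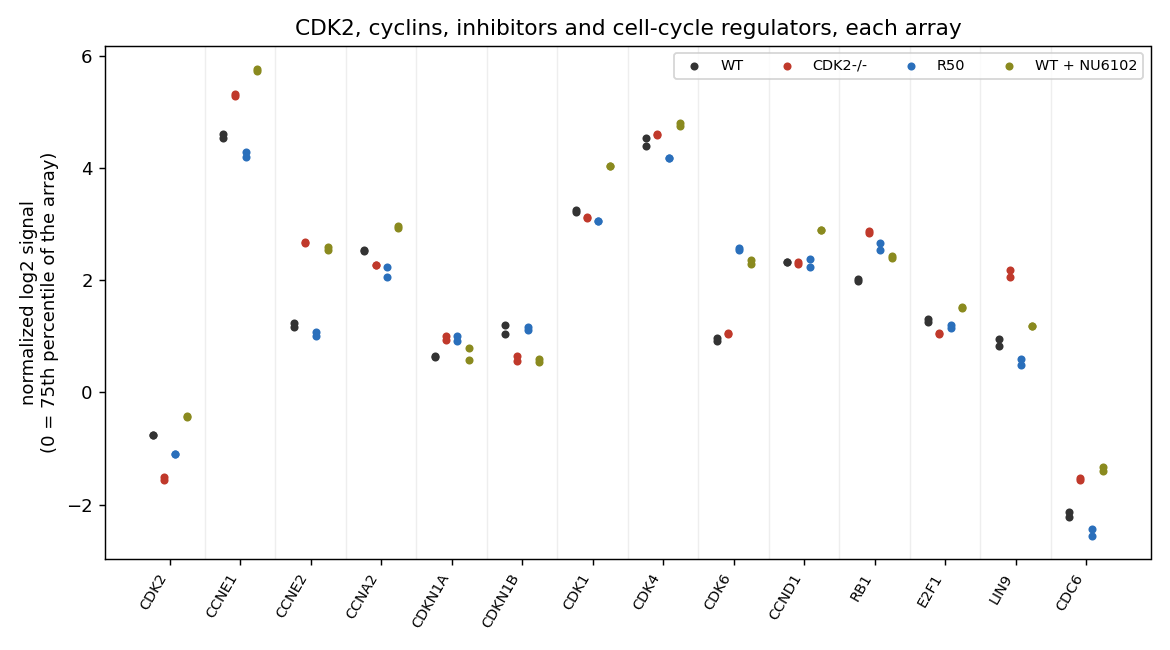
Normalized log2 signal (y axis) of CDK2, cyclins, inhibitors and cell-cycle regulators (x axis), with 1 point per array and colours for the 4 groups. CCNE1, CCNE2 and RB1 were higher in CDK2-/- than in WT cells and CDK2 and CDKN1B lower, and the points of CDK1, CDK4 and CCND1 lie close together in these groups.

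S-phase and mitotic genes moved by small amounts, mostly in opposite directions. Among 64 tested S-phase genes (replication licensing, forks and nucleotide synthesis), 0 were called in either direction. Past the adjusted p alone 24 were higher and 5 lower, with a median of 0.14. CDC6 and CDT1, which load the MCM helicase at origins, each rose by 0.64. RRM2, a ribonucleotide reductase subunit, rose by 0.59. POLA2, a subunit of DNA polymerase alpha, fell by 0.41.

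Of 58 tested G2/M genes, 31 were lower and 2 higher past the adjusted p alone, with a median of -0.21. BIRC5 (survivin) fell by 0.51 and the condensin subunit NCAPD2 by 0.92, while NCAPH, another condensin subunit, was called higher by 1.58. The NCAPH probe was dim, with means of -4.60 in WT and -3.02 in CDK2-/- cells. Its change was as low as 0.74 among the alternatives, below the minimum fold. All tested members of both lists were well above background on all 4 arrays, but the changes were small and the counts depended on single arrays. The number of S-phase genes higher was 10 and 15 without WT replicate 1 or 2, and 9 and 11 without CDK2-/- replicate 1 or 2. The number of G2/M genes lower was 17, 16, 16 and 15 in the same order. The signs of both medians were the same in every alternative tried.

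Of the gene lists examined, interferon-stimulated genes had the largest share called. Of 57 tested effector genes, 39 were called lower (68.4%, against 2.22% of all genes) and 0 higher. Past the adjusted p alone 51 were lower, and the list's median log2 change was -1.48. A further 9 of the 66 listed genes were not tested, since neither group had them well above background on both arrays. Because RNA was taken from whole cultures, fewer cells with these messages and less message per cell cannot be told apart.

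**Figure D3:**
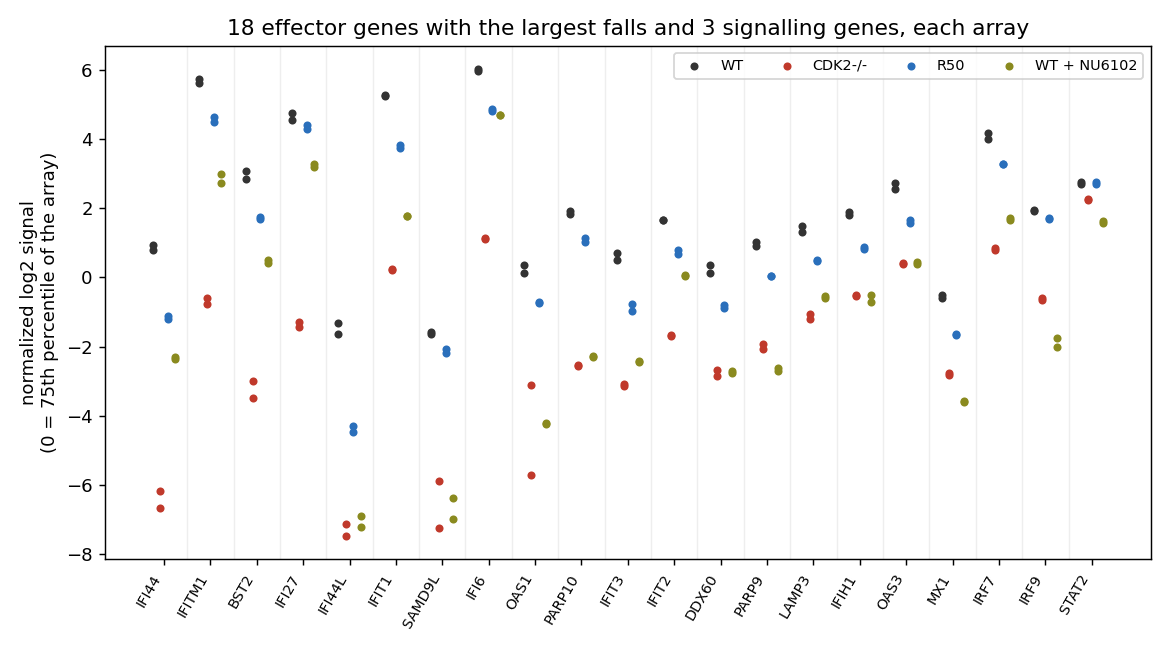
Normalized log2 signal (y axis) of the 18 effector genes with the largest falls and of IRF7, IRF9 and STAT2 (x axis), with 1 point per array and colours for the 4 groups. The WT points lie above the CDK2-/- points for each gene shown, and R50 points lie between them or near WT for most.

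Sequence upstream of 6 of these genes is shown because the matches to the ISRE core lie there. It is RefSeq sequence of GRCh38.p14, read 5′ to 3′ on the strand of the gene and ending before the annotated start of the gene. Capitals mark GAAA, any 2 bases and GAAA, or the same motif on the other strand, in which it reads TTTC, any 2 bases and TTTC.
IFI44: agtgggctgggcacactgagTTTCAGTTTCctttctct
BST2: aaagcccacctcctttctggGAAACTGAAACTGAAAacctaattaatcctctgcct
IFI27: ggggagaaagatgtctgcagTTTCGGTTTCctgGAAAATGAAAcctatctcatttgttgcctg
IFIT1: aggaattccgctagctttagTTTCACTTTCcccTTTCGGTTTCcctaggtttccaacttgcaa
IFI6: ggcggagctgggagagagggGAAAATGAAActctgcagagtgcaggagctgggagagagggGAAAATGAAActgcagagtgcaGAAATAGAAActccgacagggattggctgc
ISG15: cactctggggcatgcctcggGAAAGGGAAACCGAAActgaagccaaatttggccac

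These stretches lie at chr1:78649751-78649788 on the plus strand for IFI44, chr19:17405725-17405780 on the minus strand for BST2 and chr14:94110608-94110670 on the plus strand for IFI27. Those of IFIT1, IFI6 and ISG15 lie at chr10:89392487-89392549 on the plus strand, chr1:27672256-27672368 on the minus strand and chr1:1013364-1013419 on the plus strand. A match was found in 23 of the 31 promoters available for the called effector genes (74.2%), searched over both strands from 250 bases before the start to 50 after it. For the effector genes tested but not called it was in 7 of 14, and among all 27305 promoters of the table it was in 3.65%. Outside the effector list, 12 of 207 promoters of genes called lower held a match (5.80%), as did 13 of 316 promoters of genes called higher (4.11%). Promoters of SAMD9L, OAS1, PARP9 and XAF1, all called lower, held none. Overlapping matches, as in BST2 and ISG15, were counted once per promoter. Other motifs were searched in the same windows on both strands. TTC, any 3 bases and GAA, a core bound by STAT dimers, was in 9 of the 31 called effector promoters (29.0%) and in 7.88% of all promoters. TTTCCCGC, a core of E2F sites, was in 13 of 56 promoters of tested S-phase genes (23.2%) and in 1.66% of all promoters. Among the 11689 promoters of tested genes, the ISRE core was in 2.9%, the STAT core in 6.25% and the E2F core in 2.51%.

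The genes behind these sequences fell far. IFIT1, which binds viral RNA that lacks a host cap, read 5.28 and 5.24 in WT and 0.25 and 0.22 in CDK2-/- cells, a log2 change of -5.02 (SE 0.05, adjusted p = 3.14e-06, limma). It is on chromosome 10, and R50 cells read 3.82 and 3.75 on the slide of CDK2-/-, while WT+NU6102 cells read 1.78 and 1.77. IFI6, a membrane protein that limits apoptosis and flavivirus replication, read 6.01 and 5.96 against 1.12 and 1.14, a change of -4.86. For both genes the gap between groups was far larger than the gap between replicates.

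IFI27, a mitochondrial protein, fell from 4.76 and 4.54 to -1.28 and -1.42, a change of -6.00 (SE 0.10, adjusted p = 1.1e-05, limma). BST2, the tetherin that holds budding virions at the cell surface, fell from 3.09 and 2.85 to -2.99 and -3.48, a change of -6.20, and its other probe by 5.75. IFI44 read 0.93 and 0.80 in WT cells and was not well above background in CDK2-/- cells, where it read -6.16 and -6.67, so it was at least 63.0-fold lower (adjusted p = 1.72e-05, limma). Such a bound sets the mean of the brighter group against, on each array of the dimmer group, the higher of the probe's own value and the lowest signal that was well above background.

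Other families of antiviral effectors fell with them. The IFIT genes of chromosome 10 are neighbours, and IFIT2, IFIT3 and IFIT5 fell by 3.33, 3.71 and 1.26. The IFITM genes of chromosome 11, whose products block viral entry at membranes, fell unequally: IFITM1 from 5.73 and 5.62 to -0.77 and -0.61, a change of -6.37 (SE 0.11, adjusted p = 1.1e-05, limma), but IFITM2 and IFITM3 by 1.20 and 1.30. IFITM2 and IFITM3 are close paralogs, and their probes may share signal. The OAS genes of chromosome 12 make the activator of RNase L, and OAS2, OAS3 and OASL fell by 1.40, 2.23 and 2.15. OAS1 fell by 4.65 (SE 0.78, adjusted p = 0.0082, limma), but its CDK2-/- arrays read -3.10 and -5.69 and only 1 of them was well above background.

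The dynamin-like GTPase MX1 read -0.50 and -0.61 in WT and -2.81 and -2.75 in CDK2-/- cells, a change of -2.23. Its paralog MX2 was lower by only 0.17 on the log2 scale, at -1.67 and -1.66 against -1.80 and -1.87 (adjusted p = 0.0459, limma). ISG15, a ubiquitin-like modifier, read 7.27 and 7.18 against 5.13 and 5.12, a change of -2.10 (SE 0.05, adjusted p = 2.11e-05, limma). HERC5, the ligase that attaches ISG15, fell by 1.41, and its neighbour HERC6 by 1.82. USP18, which removes ISG15 and restrains the receptor, fell by 1.67. UBE2L6, the conjugating enzyme of the same pathway, fell by 0.67 and so was not called.

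Sensors of viral RNA and interferon-linked PARP genes were lower too. IFIH1, which encodes MDA5, fell by 2.36, DHX58 by 1.48 and DDX58, which encodes RIG-I, by 0.65. PARP10 fell by 4.41 on its brightest probe and differed by -0.97 on a dim one that did not pass the test. PARP9, its partner DTX3L and PARP14 are neighbours on chromosome 3 and fell by 2.97, 1.92 and 1.38. The 6 effector genes that did not pass the test even without a fold minimum were RSAD2, ISG20, TRIM25, DDX60L, SP100 and SLFN5. RSAD2, for the antiviral enzyme viperin, read -2.99 and -3.16 in WT and -3.03 and -5.20 in CDK2-/- cells, so its arrays in CDK2-/- cells spread widely.

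The signalling genes upstream were affected in part. IRF9, the DNA-binding subunit of ISGF3, fell from 1.95 and 1.91 to -0.66 and -0.60, a change of -2.56 (SE 0.09, adjusted p = 5e-05, limma). IRF7, which amplifies interferon production, fell from 4.17 and 4.01 to 0.78 and 0.85, a change of -3.27. STAT2, another ISGF3 subunit, fell by 0.48 (adjusted p = 0.00195, limma), less than IRF9 did.

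Among 21 tested receptors, kinases, STATs, IRFs and their inhibitors, 4 were called lower (19%, against 2.22% of all genes) and 0 higher. Past the adjusted p alone, 12 were lower and 3 higher. JAK1 fell by 0.87, from -1.39 and -1.62 to -2.51 and -2.24. TYK2, the other kinase of the type I receptor, rose by 0.44, and the inhibitor SOCS1 by 0.62. The chains of the type I receptor did not differ past the test on their brightest probes, with log2 changes of 0.07 for IFNAR1 and -0.09 for IFNAR2. Other receptor chains of the list changed by 0.30 (IL28RA, also named IFNLR1), -0.27 (IFNGR2), -0.03 (IL10RB) and 0.005 (IFNGR1). A dimmer IFNAR2 probe was lower by 0.28 (adjusted p = 0.0103, limma).

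The interferon ligands themselves were then examined, a set chosen after their values were seen because the type III genes formed a run of called neighbours. Of 17 interferon genes with a probe, 13 were not tested, among them IFNB1 and IFNG, which were well above background on no array of either group. IL28A, which encodes IFN-lambda 2, read -0.21 and -0.24 in WT and -1.85 and -2.02 in CDK2-/- cells, a change of -1.71 (SE 0.08, adjusted p = 0.000149, limma). R50 cells gave -1.27 and -1.11. IL28B and IL29, beside it on chromosome 19, were well above background in WT but not in CDK2-/- cells and were at least 2.15-fold and 5.21-fold lower. These 3 genes are similar in sequence, and their probes may share signal.

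Antigen presentation by MHC class I, which interferons raise, was lower by smaller amounts. Of 21 tested genes 1 was called, and 14 were lower and 0 higher past the adjusted p alone, with a median of -0.36. PSMB9, an immunoproteasome subunit, fell from 1.95 and 1.84 to -0.25 and -0.22, a change of -2.13. The peptide transporters TAP1 and TAP2 fell by 0.74 and 0.89, and B2M, the invariant light chain, by 0.59. Probes of the HLA genes, of which HLA-E and HLA-B fell by 0.58 and 0.49, can bind more than 1 family member.

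The other groups of the series, which are compared with the same WT arrays, showed lower effector genes as well. The median log2 difference from WT over the 57 effector genes was -1.48 in CDK2-/- cells, -0.73 in R50 cells and -1.61 in WT+NU6102 cells. WT+NU6102 lay on the slide of WT. For IRF9 the difference was -2.56 in CDK2-/-, -0.23 in R50 and -3.81 in WT+NU6102, and for IFI27 it was -6.00, -0.31 and -1.42. The groups ranked differently for these genes. Within slide 1, CDK2-/- cells were below R50 cells by a log2 difference of -3.55 for IFIT1, -5.25 for IFITM1 and -4.95 for BST2.

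**Figure D4:**
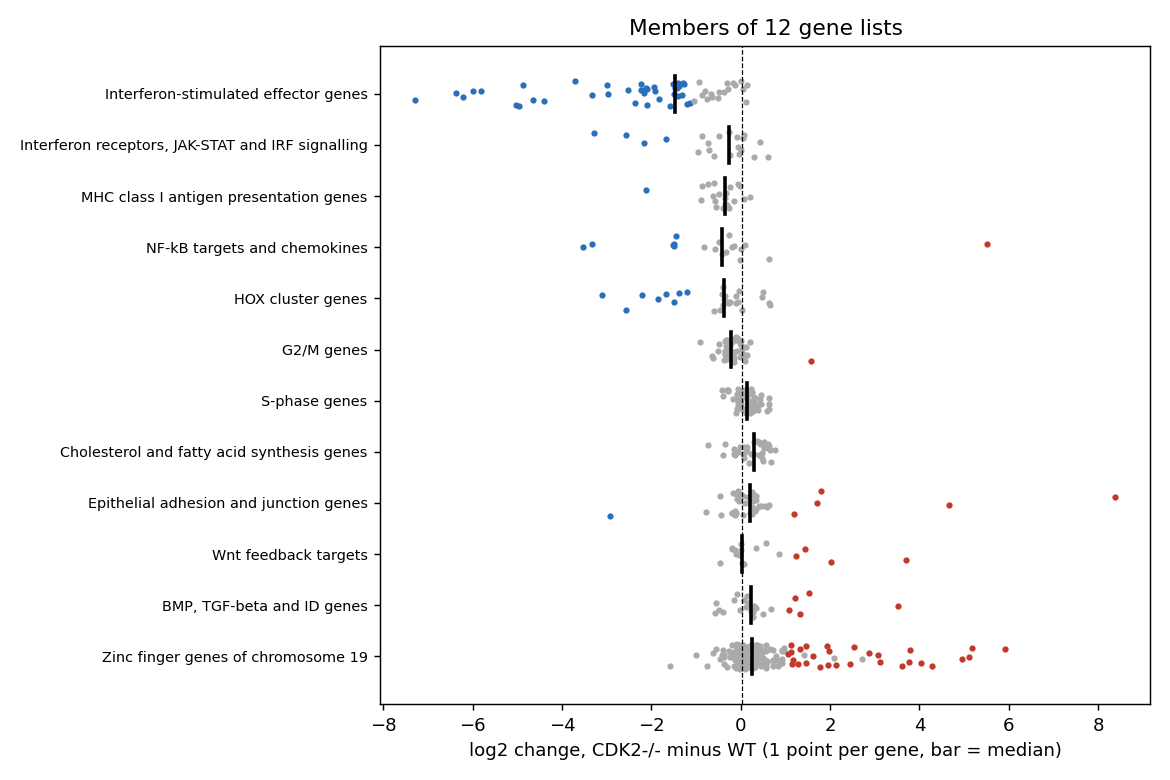
Log2 change in CDK2-/- against WT cells (x axis) of each tested member of 12 gene lists, with called genes in red (higher) or blue (lower), a black bar at each median and a dashed line at the median of all genes. The effector list has its median at -1.48, and the other lists have medians between -0.41 and 0.29.

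NF-kB targets and chemokines divided sharply. Of 19 tested genes 6 were called lower (31.6%, against 2.22% of all genes) and 1 higher (5.26%, against 2.77%), and the median was -0.41. LCN2, an iron-sequestering lipocalin, fell from 0.68 and 0.70 to -2.66 and -2.61, a change of -3.33, whereas R50 cells, at 2.41 and 2.37, were above WT. CCL5 was not well above background in CDK2-/- cells and was at least 2.74-fold lower. IL18, BIRC3, CXCL1 and TNFAIP3 fell by 1.52, 1.49, 1.48 and 1.46, and the other CXCL1 probe by 0.56. ICAM1, the adhesion molecule for leukocyte integrins, went the other way. It was not well above background in WT cells, at -5.56 and -6.14, and read -0.33 and -0.32 in CDK2-/- cells, at least 24.6-fold higher (adjusted p = 5.26e-05, limma).

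Matrix and mesenchymal genes included the largest single fall. SPARC, a secreted matrix glycoprotein, read 3.55 and 3.87 in WT and -4.38 and -3.83 in CDK2-/- cells, a change of -7.82 (SE 0.20, adjusted p = 2.51e-05, limma). R50 cells, on the slide of CDK2-/-, read 5.28 and 5.10. VIM, for the intermediate filament vimentin, fell by 2.16, and GNG11 and CTGF, both not well above background in CDK2-/- cells, were at least 25.1-fold and 5.10-fold lower. These were the 3 called members of 20 tested mesenchymal genes (15% lower, against 2.22% of all genes), of which 0 were called higher. Of 54 tested collagen, laminin, integrin and matrix genes, 9 were called higher (16.7%) and 3 lower (5.56%), against 2.77% and 2.22% of all genes. COL12A1 rose by 2.36, and TIMP3, an inhibitor of matrix metalloproteinases that was not well above background in WT cells, was at least 5.78-fold higher.

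Several epithelial genes were higher in CDK2-/- cells. GRHL3, a transcription factor of barrier epithelia, rose from -2.74 and -2.91 to 1.77 and 1.91, a change of 4.66 (SE 0.26, adjusted p = 0.000233, limma). The desmosomal cadherin DSC2 rose by 1.72 and the transcription factor OVOL1 by 1.19. CLDN2, a pore-forming claudin, fell by 2.93, and R50 cells were 3.53 below WT. In all, 5 of 43 tested junction and adhesion genes were called higher (11.6%) and 1 lower, while CDH1, for E-cadherin, rose by 0.26 and EPCAM did not differ past the test (0.06).

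Among 35 intestinal genes 4 were called higher (11.4%) and 1 lower (2.86%), against 2.77% and 2.22% of all genes. The 1 called lower, HNF4G, fell by 1.29 and lost the adjusted p in some alternatives. DPEP1, a brush border dipeptidase, rose by 5.02 (SE 0.25, adjusted p = 0.000166, limma) and DPP4, another brush border peptidase, by 3.55. NR5A2, a nuclear receptor of gut epithelium outside this list, fell by 3.88 on its brightest probe and by 0.50 on another. SLC15A1, the intestinal peptide transporter, is also outside this list. It was not well above background in CDK2-/- cells and was at least 18.5-fold lower. Keratin genes gave 1 call in 17 (5.88%), KRT23, which rose by 1.95.

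Wnt feedback genes and BMP genes were higher in part. RNF43, a ubiquitin ligase that removes Frizzled receptors, read -1.27 and -1.20 in WT and 2.46 and 2.50 in CDK2-/- cells, a change of 3.71 (SE 0.06, adjusted p = 1.1e-05, limma), while R50 cells read -2.68 and -2.59. Its relative ZNRF3 rose by 1.24, AXIN2, a scaffold of the beta-catenin destruction complex, by 1.44, and BAMBI, a decoy receptor, by 2.01. These 4 were the called members of 17 tested (23.5% higher, against 2.77% of all genes), with 0 lower. The list's median was 0.04, close to that of all genes, and was below 0 in 2 of 17 alternatives.

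Of 23 BMP, TGF-beta and ID genes, 5 were called higher (21.7%) and 0 lower. BMP4 rose from -0.28 and -0.22 to 1.27 and 1.29, a change of 1.53. BMP2, not well above background in WT cells, was at least 2.53-fold higher. The ID proteins block basic helix-loop-helix factors and are targets of BMP signalling, and ID2, ID3 and ID4 rose by 1.33, 1.21 and 1.08. As with some other called genes listed at the end, the call for ID4 was lost in some alternatives, 3 of the 17. Its log2 change was 0.98 without WT replicate 1 or without CDK2-/- replicate 2 (adjusted p = 0.0799 and 0.0783, limma), and 0.68 with normexp background correction, below the minimum fold.

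Cholesterol and fatty acid synthesis genes were higher by small amounts. Of 34 tested, 20 were higher and 3 lower past the adjusted p alone, with a median of 0.29 and 0 calls. HMGCS1 and FDFT1, which act early and midway in sterol synthesis, rose by 0.77 and 0.69, and SQLE, the squalene epoxidase, fell by 0.72. Glucose transporter SLC2A1 rose by 1.64 on its brightest probe and differed by -0.16 on another. AREG, a ligand of the EGF receptor, rose by 1.58, and its other probe by 1.71.

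Of 28 tested HOX genes 8 were called lower (28.6%) and 0 higher. HOXA3 fell from 0.65 and 0.74 to -2.34 and -2.46, a change of -3.10 (SE 0.07, adjusted p = 1.72e-05, limma), and R50 cells read -2.10 and -2.09. HOXA2, HOXA3 and HOXA4 lie beside each other on chromosome 7, and HOXA2, not well above background in CDK2-/- cells, was at least 3.89-fold lower. HOXB8 fell by 2.58, whereas R50 cells differed from WT by -0.08. Of the cluster on chromosome 17, HOXB3, HOXB4, HOXB6 and HOXB9 were also called lower.

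Zinc finger genes of chromosome 19, most of which encode KRAB-type repressors and are arranged in tandem clusters, had the most genes called higher by count. Of 184 tested, 29 were called higher (15.8%, against 2.77% of all genes) and 0 lower, and the median was 0.25. Some smaller lists had a larger share called higher, such as Wnt feedback genes (23.5%) and BMP genes (21.7%). Of 262 tested zinc finger genes on other chromosomes, 4 were called higher (1.53%) and 1 lower (0.382%). ZNF613 read -6.25 and -6.12 in WT, not well above background, and -0.99 and -1.01 in CDK2-/- cells, at least 15.4-fold higher. ZNF134 was at least 13.1-fold higher, and ZNF266 at least 12.6-fold. R50 cells, on the same slide as CDK2-/-, read -6.01 and -6.90 for ZNF613 and had a median of -0.22 from WT over the 184 genes. These genes are similar in sequence, so single probes may share signal with relatives. Of the 29 genes, 15 were well above background on all 4 arrays, 12 on neither WT array and 2 on 1 WT array. A fit restricted to probes well above background on all 4 arrays called 16 genes of the list higher.

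**Figure D5:**
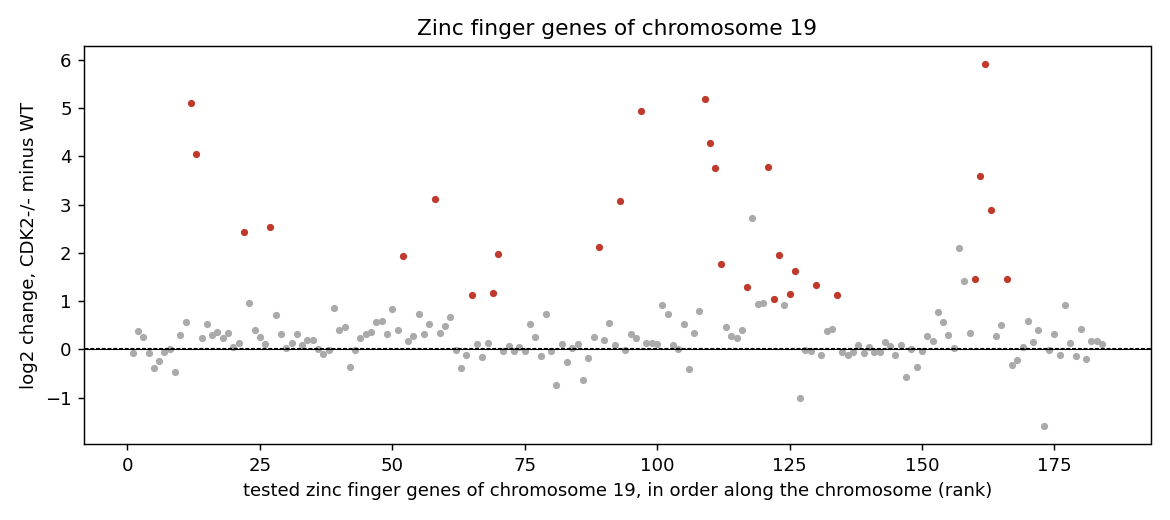
Log2 change in CDK2-/- against WT cells (y axis) of the 184 tested zinc finger genes of chromosome 19 in their order along the chromosome (x axis, rank), with called genes in red and a dashed line at the median of all genes. The 29 genes called higher are spread along the chromosome, with groups of neighbours near ranks 109 to 126 and 160 to 166.

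Position along the chromosomes was examined in windows of 20 neighbouring tested genes. The window from ZNF649 to ZNF816 had the highest median of any, 1.1, with 10 of its 20 genes called higher and 100% above 0. Chromosome medians outside the mitochondrial genome ranged from -0.01 to 0.08. Among 15 runs of 3 or more neighbouring genes called in 1 direction, those of the IFIT, IFITM, OAS, HERC, type III interferon and PARP9 genes are described above. The longest run, 6 genes lower on chromosome 11, included HBE1, an embryonic globin gene, and OR51B4, OR51B2 and OR51B5, which fell by 2.21, 1.70, 2.52 and 2.33. BDKRB2 and BDKRB1, the bradykinin receptor genes of chromosome 14, were in a run of 4 that was higher, and rose by 2.45 and 2.82. The 12 genes assigned to the mitochondrial genome had a median of 0.46, with 5 higher and 0 lower past the adjusted p alone. For most of them the WT replicates also lay apart. ND4 read 5.27 and 5.63 in WT and 5.60 and 5.89 in CDK2-/- cells, so its groups overlapped. ND6 had closer replicates, 2.29 and 2.31 against 2.90 and 2.95.

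The remaining large changes were of genes with varied roles. ZC4H2, a zinc finger gene of the X chromosome known for its part in neural development, rose from -3.38 and -3.42 to 1.81 and 1.64, a change of 5.12 (SE 0.16, adjusted p = 4.47e-05, limma). AQP3, an aquaglyceroporin, rose by 3.74 on 1 probe and 3.78 on the other, and UTS2, which encodes the peptide urotensin II, by 4.23. RND3, an atypical small GTPase that loosens actin fibres, rose by 2.81, and R50 cells were 2.90 above WT. PLK2, a kinase of the polo family, read 0.43 and 0.49 in WT and 2.20 and 2.18 in CDK2-/- cells, a rise of 1.73, and R50 cells were 1.71 above WT. RERG, a Ras-like growth inhibitor, fell by 3.47, and SEMA3A, an axon guidance ligand, fell by 3.42. TNIK, a kinase that acts with TCF4 in Wnt signalling, fell by 3.11, 2.72 and 2.11 on its 3 probes. LRP1B, a large endocytic receptor, was at least 29.0-fold lower.

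The remaining lists are given beside the 2.77% of all genes called higher and 2.22% called lower. Of 31 DNA methylation and KRAB silencing regulators, 0 were called, with 10 higher and 4 lower past the adjusted p alone. ABC transporters gave 4 called higher (13.3%) and 2 lower (6.67%) of 30, with ABCA12, a lipid carrier, up by 2.18 and ABCC2, an efflux pump, by 1.48. Drug-metabolizing enzymes gave 3 higher (10.0%) and 2 lower (6.67%) of 30. Of 31 amino acid and ER stress genes 1 was called lower (3.23%), the mTOR inhibitor DDIT4, which fell by 1.51. Past the adjusted p alone, 15 of these 31 were lower and 2 higher, with a median of -0.21. Of all genes, 16.8% were lower and 20.1% higher past the adjusted p alone. Of 29 BCL2 family and caspase genes 2 were called lower, BIRC3 and CASP10. Glycolysis and hypoxia-response genes gave 1 call each way among 35, with ENO2, the neuronal enolase, falling by 1.15. ERK feedback and EGF family genes gave 1 call in 36, AREG, and cancer-testis antigen genes 1 in 13, TEX14.

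Where a gene had more than 1 tested probe, the probes often gave different calls. Of 345 genes with 2 or more tested probes and at least 1 called, 92 had all probes called the same way, 252 had some called, and 1 had probes called in opposite directions. Markers were read as a check of the label. Of 13 colon epithelial markers 10 were tested, including EPCAM, CDX1, CDX2, KRT18 and KRT19, while CDH17, CEACAM5 and VIL1 were well above background on none of the 4 arrays. The linear signal summed over all probes of the 13 markers was 532 and 541 times the 75th percentile in WT and 659 and 682 times in CDK2-/- cells. That sum leans on bright probes such as that of KRT19, which rose from 7.43 and 7.42 to 8.05 and 8.09. KRT20 fell by 0.64. Past the adjusted p alone 3 of the 10 tested were higher, 1 was lower and 6 did not pass, with a median of 0.12. The 11 stromal markers summed to 0.65 and 0.59 in WT and 1.38 and 1.09 in CDK2-/- cells, with 7 of them, among them COL1A2, COL3A1 and PDGFRA, above background on no array. COL1A1 was the 1 stromal marker called, higher by 1.22. The 12 leukocyte markers summed to 25.4 and 26.8 against 24.1 and 26.3, and 6 of 8 endothelial markers were above background on no array. The part of these markers in the results was not tested.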

How the data were processed

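RNA of HCT-116 cells was labelled with Cy3 and hybridized to 8 one-colour Agilent arrays, with 2 arrays in each of 4 groups. The authors deposited scanner files in which Agilent Feature Extraction 11.5.1.1 gives a background-subtracted signal intensity per spot, not normalized between arrays. They also deposited log2 values of 28719 probes made with GeneSpring, which equal the scanner log2 less a constant per array with each probe centred on its median (r at least 0.9993, direction the same). Column medians of that table lie between -0.02 and 0.02, and the exact constant used for each array is not given in the sources used here.

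From the intensities, control and outlier spots were left out, log2 was taken, each array was set relative to its 75th percentile and spots of a probe were averaged (R 4.3.3 with the package data.table, version 1.17.8). Of 58717 spots that are not controls, 34017 to 36206 per array of the compared groups were well above background, and 0 were saturated. The number of arrays limits the precision. Limma 3.58.1 fitted all 4 groups together and gave CDK2-/- minus WT, two-sided. Scan and slide coincide. Probe positions are hg19, from the WT scanner files, since those of CDK2-/- give none. Of 15190 gene symbols 13359 matched RefSeq by symbol, 1567 by accession and 156 by synonym, and 11689 had a promoter in the table of GRCh38.p14. Figures were drawn with Python 3.11.15 and matplotlib 3.10.9. The fit was tested on simulated data.

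Members and gene lists were chosen with earlier results of these data known. Genes are represented by their brightest tested probe. The text names CDK2 and fixed cell cycle, interferon and marker genes, the 15 largest rises and falls well above background on all 4 arrays, the 5 largest bounds each way and up to 6 called genes per list; other genes named in the gene group paragraphs are members of these lists, chosen after their values were seen. Alternatives were other background correction, scaling, filters, thresholds, prior variance, sample sets, a replicate block, the authors' values, the methods' ANOVA with Student-Newman-Keuls, the mean of a gene's probes and leaving out each array. A slide block was planned but could not be fitted. Some genes, and 1 gene list, that the rule names are not reported here.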

Additional observations from a re-analysis of the deposited data

How the results depend on the processing

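Of the counts and the CDK2 value, those not named here stayed within 1.5 times the reported value under every alternative that was run, and no gene named by the rule past its threshold changed direction. Normexp background correction with an offset of 50 gave 606 called probes in place of 1338, 336 higher and 270 lower. Without a filter on dim probes 5333 passed the adjusted p alone in place of 9033, as did 9 S-phase genes higher, 11 G2/M genes lower, and 2 higher and 3 lower in the list of CDK2 and its regulators. Requiring a signal well above background on all 4 arrays gave 16 zinc finger genes of chromosome 19 higher. The fit of the 4 arrays alone gave 13 S-phase genes higher. With other thresholds 9033 probes passed with no minimum fold, 368 with a log2 change of at least 2, and 413 by the methods' ANOVA and Student-Newman-Keuls with the same minimum fold.

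Leaving out each array in turn gave 1232 to 1358 called probes, 648 to 718 higher and 584 to 661 lower, with 5489 to 8632 past the adjusted p alone. The log2 change of CDK2 ranged from -0.80 to -0.75. Effector genes lower numbered 38 to 40, signalling genes 9 to 12, antigen presentation genes 11 to 14 and HOX genes 8 to 8. Genes higher numbered 27 to 31 for zinc fingers, 15 to 19 for cholesterol genes, 4 to 5 for BMP genes and 4 to 4 for Wnt genes. S-phase genes higher numbered 9 to 20 and G2/M genes lower 15 to 28. The list of CDK2 and its regulators gave 2 to 6 higher and 3 to 5 lower.

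The replicate numbers are only names, since deviations of same-numbered arrays correlated with r = 0.05 and there are 2 pairs. The replicate block gave 1300 called probes, 684 higher and 616 lower, 8421 past the adjusted p alone and a CDK2 change of -0.77 (adjusted p = 0.00129, limma), and it moved no other count by over 1.5 times. The slide as a random block could not be fitted, because slides are already encoded by the groups. Over the 133 named genes and all alternatives, 62 comparisons no longer had an adjusted p under 0.05, 3 newly had one and 2164 stayed on the same side, whatever the fold. Genes that lost the adjusted p include CCNA2, CDKN1A, E2F1, CDH1, DSC3, HNF4G, ABCB1 and ID4. Other called genes kept the adjusted p but fell below the minimum fold in at least 1 alternative. Among them, the smallest log2 changes were -0.93 for VIM, 0.98 for AXIN2, 0.74 for NCAPH, 0.83 for COL1A1 and -0.66 for HOXA2.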
